A study of Mus musculus with 10 samples.

Results

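The genes described are 10 genes of the pigment cell lineage, which in the cochlea are genes of the intermediate cells of the stria vascularis. They are Tyr, Tyrp1, Dct, Pmel, Mlana, Slc45a2, Oca2, Mitf, Kit and Gpnmb, and all 10 were found by their symbols among the 54532 genes of the count tables. Gpnmb was selected on its lower CPM (read counts scaled to a common library total) in the treated than in the non-treated mice of this comparison. Its difference between the groups is therefore given as a description with no test. The other 9 were chosen by their known place in the lineage, but with earlier results of these data known. Their counts and p-values are thus not an independent check on Gpnmb. The RNA-seq libraries were made from the cochlea of 12-month-old mtKeima mice, which carry a mitochondrial fluorescent reporter for mitophagy on a mixed genetic background. The NR-treated group (5 mice) drank nicotinamide riboside (NR), a precursor of NAD+, at 7 mg/ml (24 mM) from 2 months of age for 10 months, and the non-treated group (5 mice) drank regular water. The methods of the study state that the animals carried neither the hearing loss allele of cadherin 23 nor the mutation of Nnt that C57BL/6J mice have. The labels call the mice female, whereas the methods describe males. Y-linked Ddx3y, Kdm5d, Eif2s3y and Uty lay between 24.3 and 83.8 CPM in all 10 mice and Xist was at most 0.410 CPM, which is the pattern of males. Coat colour was not given in the sources used here. All 12 marker genes of marginal cells, 10 of intermediate cells, 6 of basal cells and 10 of hair cells passed the filter on low counts, with Kcnj13, a potassium channel of intermediate cells, at no more than 4.41 CPM. Gene coordinates are those of the count tables (mm10). Total counts lay between 17060379 and 22931581 in the NR-treated mice and between 20004667 and 24419230 in the non-treated mice.

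Intermediate cells are neural crest-derived pigment cells that lie between the marginal and basal cells of the stria vascularis. Their potassium channel KCNJ10 helps to generate the endocochlear potential on which hair cells depend. Pigment cells make melanin in melanosomes, which are organelles related to lysosomes. Tyrosinase (Tyr) starts melanin synthesis, and dopachrome tautomerase (Dct) and tyrosinase-related protein 1 (Tyrp1) act after it. PMEL forms the fibrils on which melanin is laid down, MLANA is needed for PMEL to mature, and SLC45A2 and OCA2 help to set the pH of the melanosome. MITF is the transcription factor that governs the lineage, and KIT is the receptor of stem cell factor, which pigment cells need to migrate and survive. GPNMB is a membrane protein of melanosomes and lysosomes that is related to PMEL and is also made by macrophages and osteoclasts.

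The promoters of the 3 melanin enzymes share a stretch of 10 bases, and they are shown because these 3 genes differed widely in level and in their difference between the groups. Promoter sequences of RefSeq (GRCm38.p6, 250 bases before each annotated start) were matched for 7 of the 10 genes, in 10 windows. The letters CATGTG, read on both strands, were found in the windows of Tyr, Tyrp1, Dct and Oca2, and in 12.3% of all 32851 promoters of the same length. GTCATGTGCT, the longest run of letters that the windows of Tyr, Tyrp1 and Dct share on the strand of the gene, contains CATGTG and was found on either strand in 0.155% of all promoters. CACGTG was found in none of the 10 windows, and in 6.02% of all promoters. The windows of Tyr (chr7:87493513-87493762, minus strand) and Dct (chr14:118052247-118052496, minus strand) are printed 5′ to 3′ in the direction of the gene, with CATGTG, or CACATG where it lies on the other strand, in capitals.
Tyr: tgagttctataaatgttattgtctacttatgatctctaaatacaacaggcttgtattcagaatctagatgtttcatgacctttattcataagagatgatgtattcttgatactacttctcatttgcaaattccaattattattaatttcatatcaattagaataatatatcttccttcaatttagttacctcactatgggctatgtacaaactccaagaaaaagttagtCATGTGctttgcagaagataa
Dct: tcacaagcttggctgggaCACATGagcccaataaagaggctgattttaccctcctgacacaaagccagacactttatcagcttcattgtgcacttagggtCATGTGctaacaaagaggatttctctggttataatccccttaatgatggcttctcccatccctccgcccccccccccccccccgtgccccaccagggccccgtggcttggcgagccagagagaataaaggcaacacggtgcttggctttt
For Tyrp1 the 30 bases around the stretch (chr4:80834155-80834184, plus strand) are printed, with the shared 10 bases in capitals.
Tyrp1: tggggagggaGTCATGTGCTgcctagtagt
The stretch began 23 bases upstream of the RefSeq start in Tyr, 48 bases in Tyrp1 and 152 bases in Dct. In Tyrp1 it lay within the gene as the count tables give it, 42 bases after their gene start. A match of letters is a description of these windows and does not show that a factor binds there.

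Of the 9 genes other than Gpnmb, 6 were lower in the NR-treated mice, namely Tyr, Slc45a2, Dct, Mitf, Mlana and Kit, and none was higher at an unadjusted p under 0.05 by the quasi-likelihood test of edgeR. Over all 18329 genes tested, 4.88% were lower and 4.83% higher at that threshold. None of the 9 passed after Benjamini-Hochberg adjustment over all genes tested, where their smallest adjusted p was 0.370, and none of the 18329 genes did either (smallest adjusted p = 0.224). With DESeq2, 105 of all genes passed an adjusted p of 0.05, and Tyr (adjusted p = 0.00713), Slc45a2 (0.0130), Mitf (0.0143) and Dct (0.0334) were 4 of the 9. The share of all genes that were lower at an adjusted p under 0.05 in that test was 0.267%. At an unadjusted p under 0.05, DESeq2 too had these 6 lower and none higher, beside 3.08% of all genes lower and 3.5% higher. On the log2 scale, the median difference of the 9 was -0.61, beside -0.01 over all genes tested. In bulk tissue, fewer cells of a type and less RNA per cell cannot be told apart.

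**Figure D1:**
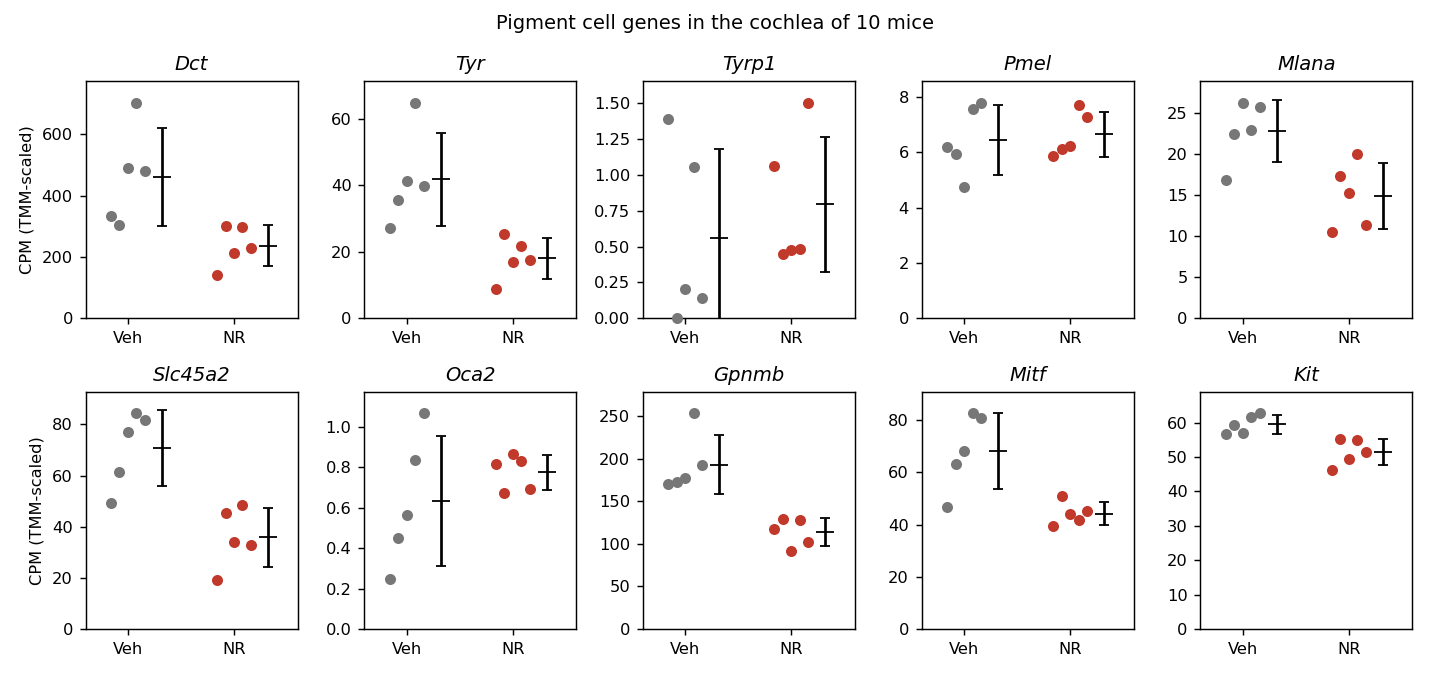
Level of each pigment cell gene in the cochlea of each mouse, in CPM scaled by TMM, for non-treated (Veh, grey) and NR-treated (NR, red) mice. Each point is 1 mouse, and the bar beside the points is the mean ± SD (n = 5), drawn only above 0. The groups are apart for Tyr, Slc45a2, Gpnmb and Kit and touch for Dct, while those of Pmel, Oca2, Tyrp1, Mlana and Mitf overlap, with all NR-treated mice inside the non-treated range for Pmel and Oca2.

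Among the melanin enzymes, Tyr and Dct were lower in the NR-treated mice and Tyrp1 was hardly present in either group. Tyr (ENSMUSG00000004651, chr7:87424771-87493512) measured 8.91, 25.4, 17.0, 21.6 and 17.7 CPM in NR-treated replicates 1 to 5 and 27.1, 35.6, 41.5, 64.9 and 39.9 CPM in non-treated replicates 1 to 5. All NR-treated mice were below all non-treated mice, which was so in the same direction for 0.878% of the genes tested. The means were 18.1 ± 6.14 and 41.8 ± 14.1 CPM (SD, n = 5 each). This was the largest difference of the 10 genes, with a log2 fold change of -1.21 (SE 0.28, edgeR unadjusted p = 0.00117, adjusted p = 0.399).

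Dct (ENSMUSG00000022129, chr14:118012790-118052244), the enzyme that converts dopachrome, measured 142, 303, 212, 298 and 231 CPM in the NR-treated and 333, 303, 489, 704 and 479 CPM in the non-treated mice. NR-treated replicate 2 and non-treated replicate 2 met at 302.751 and 302.766 CPM, so the groups were apart by a margin of no weight, and with CPM by the total count they overlapped. Its log2 fold change came to -0.96 (SE 0.25, edgeR unadjusted p = 0.00306, adjusted p = 0.408), and the NR-treated mean was 51.4% of the non-treated mean as fitted.

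Tyrp1 (ENSMUSG00000005994, chr4:80834123-80851719) measured 1.06, 0.447, 0.476, 0.480 and 1.505 CPM in the NR-treated and 1.39, 0, 0.202, 1.06 and 0.139 CPM in the non-treated mice. These levels came from 0 to 28 reads a library, and the 0 of non-treated replicate 2 allows a level of up to 0.135 CPM, for counting error only. Both groups held mice above 1 CPM and mice below 0.5 CPM. With few reads and this spread between mice, a difference was not detected (log2 fold change 0.50, SE 0.77, edgeR unadjusted p = 0.533).

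Of the genes that build the melanosome, Mlana and Slc45a2 were lower in the NR-treated mice and Pmel and Oca2 gave no difference past the threshold. Slc45a2 (ENSMUSG00000022243, chr15:11000721-11029233), a melanosome transporter, measured 19.3, 45.4, 34.1, 48.3 and 32.6 CPM in the NR-treated and 49.4, 61.3, 76.9, 84.3 and 81.9 CPM in the non-treated mice. The groups were apart, with NR-treated replicate 4 just under non-treated replicate 1. For Slc45a2 the log2 fold change came to -0.98 (SE 0.23, edgeR unadjusted p = 0.00139, adjusted p = 0.408).

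Mlana (ENSMUSG00000024806, chr19:29697921-29708448), the partner of PMEL, measured 10.5, 17.3, 15.3, 20.0 and 11.4 CPM in the NR-treated and 16.8, 22.4, 26.3, 22.9 and 25.7 CPM in the non-treated mice. Non-treated replicate 1 lay within the range of the NR-treated mice, and the other 4 lay above it. For Mlana the log2 fold change came to -0.61 (SE 0.19, edgeR unadjusted p = 0.00693, adjusted p = 0.423).

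Pmel (ENSMUSG00000025359, chr10:128704195-128720238), the fibril protein, measured 5.88, 6.13, 6.23, 7.73 and 7.29 CPM in the NR-treated and 6.21, 5.93, 4.73, 7.58 and 7.80 CPM in the non-treated mice, so that the range of the NR-treated mice lay inside that of the non-treated mice. The log2 fold change of 0.04 (SE 0.15, edgeR unadjusted p = 0.777) changed sign when NR-treated replicate 4 (-0.01) or non-treated replicate 3 (-0.03) was left out. Pmel shares 34 exon bases with Cdk2 and 105 with Dgka, genes of the opposite strand with mean levels of 41.8 and 53.6 CPM, and reads were counted without regard to strand, so its level is uncertain. Oca2 (ENSMUSG00000030450, chr7:56239760-56536518), the other melanosome transporter, came to 0.671 to 0.865 CPM in the NR-treated and 0.248 to 1.07 CPM in the non-treated mice, from 5 to 23 reads a library. Its NR-treated mice all lay inside the range of the non-treated mice (log2 fold change 0.29, SE 0.33, edgeR unadjusted p = 0.401).

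Mitf and Kit, which stand above the melanosome genes in the lineage, were both lower in the NR-treated mice, Mitf by more than Kit. Mitf (ENSMUSG00000035158, chr6:97807052-98021349) measured 39.3, 50.8, 44.1, 41.8 and 45.1 CPM in the NR-treated and 46.9, 63.2, 68.0, 82.6 and 80.8 CPM in the non-treated mice. Only NR-treated replicate 2 exceeded a non-treated mouse, namely replicate 1. For Mitf the log2 fold change came to -0.63 (SE 0.14), and its edgeR unadjusted p of 9.04e-04 was the smallest of the 9 (adjusted p = 0.370). Mitf is transcribed from several promoters, and the gene counts do not tell its forms apart.

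Kit (ENSMUSG00000005672, chr5:75574916-75656722) measured 46.4, 55.3, 49.4, 55.0 and 51.6 CPM in the NR-treated and 56.7, 59.3, 57.1, 61.8 and 62.7 CPM in the non-treated mice. The groups were apart by a small difference, with an SD of 3.80 CPM in the NR-treated and 2.68 CPM in the non-treated mice. For Kit the log2 fold change came to -0.21 (SE 0.06, edgeR unadjusted p = 0.00555, adjusted p = 0.423). Kit is also expressed by mast cells and blood progenitors. Mast cell markers (9 genes, 7 tested) came to a summed 17.1 to 47.4 CPM in the NR-treated and 15.9 to 30.1 CPM in the non-treated mice, and progenitor markers (8 genes) to 287 to 620 and 367 to 462 CPM. Their median log2 fold changes were 0.70 and 0.17.

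Gpnmb (ENSMUSG00000029816, chr6:49036546-49070929), the gene picked for its lower level, measured 117, 129, 91.1, 127 and 102 CPM in the NR-treated and 170, 173, 177, 254 and 193 CPM in the non-treated mice. The highest NR-treated mouse was at 129 CPM and the lowest non-treated mouse at 170 CPM. The mean was 113 ± 16.5 CPM against 193 ± 34.8 CPM (SD, n = 5 each), a log2 fold change of -0.77 (SE 0.13), and the fitted level in NR-treated mice was 58.7% of that in non-treated mice. Of the 9 other genes, 4 had groups that did not overlap, all lower in the NR-treated mice, beside 0.878% of the genes tested, and without Dct, whose groups overlapped with CPM by the total count, these were Tyr, Slc45a2 and Kit. Of the 9, 6 had log2 fold changes below 0, beside 52.9% of the genes tested.

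**Figure D2:**
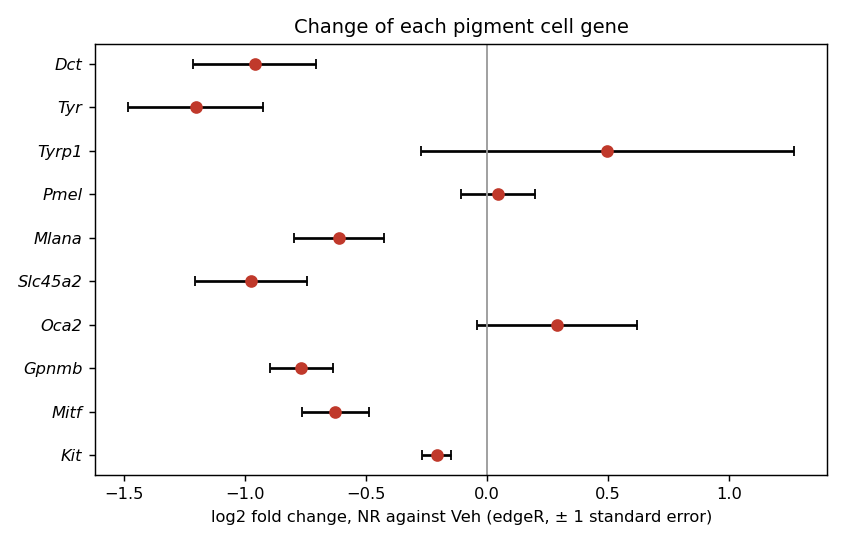
Log2 fold change of each pigment cell gene, NR-treated against non-treated mice, with 1 standard error on each side (edgeR, 5 mice a group). Tyr (-1.21), Slc45a2 (-0.98) and Dct (-0.96) lie farthest below 0, and Tyrp1 (0.50, SE 0.77) has the widest error. Gpnmb was chosen for its value.

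The 6 genes that were lower did not rest on a single library. In each of the 10 fits that left out 1 mouse, all 6 remained lower at an unadjusted p under 0.05, and over these fits the log2 fold change ranged from -1.35 to -0.99 for Tyr, from -1.07 to -0.76 for Dct, from -1.10 to -0.81 for Slc45a2, from -0.74 to -0.50 for Mlana, from -0.73 to -0.55 for Mitf and from -0.23 to -0.16 for Kit. Non-treated replicates 3 and 4 had the highest levels of marginal and hair cell markers. Without both of them, the 6 genes again passed that threshold, with log2 fold changes of -0.91 for Tyr, -0.64 for Dct, -0.83 for Slc45a2, -0.53 for Mlana, -0.52 for Mitf and -0.20 for Kit. Gpnmb was then at -0.65. Dct, whose fitted non-treated level was 1.95 times the NR-treated one with all mice, moved the most.

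Levels can be compared between genes once gene length is taken into account, here as TPM (read counts divided by gene length and scaled to a fixed total) with the gene lengths of the count tables. In non-treated mice the mean level ran in the order Dct (240 ± 90.6 TPM), Mlana (111 ± 20.6), Gpnmb (90.4 ± 18.9), Slc45a2 (72.4 ± 17.3), Mitf (33.6 ± 7.88), Kit (20.3 ± 1.34), Tyr (18.0 ± 6.59), Pmel (8.55 ± 1.78), Tyrp1 (0.607 ± 0.673) and Oca2 (0.490 ± 0.256). Among neighbours in this order, the ranges of the non-treated mice overlapped for Mlana and Gpnmb, for Gpnmb and Slc45a2, for Kit and Tyr, and for Tyrp1 and Oca2, so these pairs were not separated. Dct was above Mlana in 10 of 10 mice. Tyr was above Pmel in 6 of 10 mice of both groups, but in non-treated mice their ranges were apart (11.5 to 28.7 against 6.53 to 10.4 TPM). The position of Mlana depends on its length, since the tables give it 623 bases and GENCODE M21 gives its exons 1057 bases. At the longer length its mean would be 65.7 TPM in non-treated mice, with a range of 48.0 to 78.5 TPM that overlaps the ranges of Gpnmb and Slc45a2. In NR-treated mice the means were 123 ± 33.8 TPM for Dct, 73.1 ± 18.9 for Mlana, 53.4 ± 7.63 for Gpnmb, 36.9 ± 11.6 for Slc45a2, 21.9 ± 2.08 for Mitf, 17.7 ± 1.23 for Kit and 7.79 ± 2.61 for Tyr. Pmel, at 8.90 ± 1.09 TPM, had a higher mean than Tyr there, the reverse of their order in non-treated mice. Their ranges in NR-treated mice overlapped (7.94 to 10.2 TPM for Pmel, 3.88 to 10.9 TPM for Tyr), so this pair was not separated there. Tyrp1, whose promoter window holds the 10 bases shared with Tyr and Dct, had a level near that of Oca2. Whether these bases bear on the level was not tested.

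**Figure D3:**
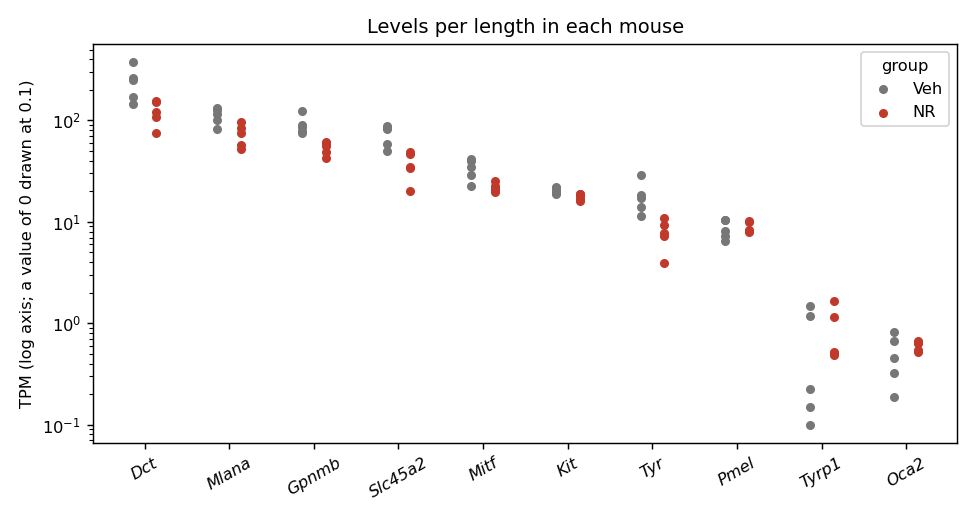
Level per length of each pigment cell gene in each mouse, in TPM on a log axis, for non-treated (Veh, grey) and NR-treated (NR, red) mice, in the order of the non-treated means. The genes span from 375.6 TPM for Dct in a non-treated mouse to below 1 TPM for most mice in Tyrp1 and Oca2, and the value of 0 for Tyrp1 is drawn at 0.1.

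The median difference of other melanosome genes was near that of all genes, and no gene of this or the following lists passed after adjustment over all genes by edgeR. Of 32 such genes, all tested, 5 were lower and none higher at an unadjusted p under 0.05, and the median on the log2 scale was -0.01. The 5 were Slc7a11, the cystine transporter that sets pigment type (log2 fold change -0.34, edgeR unadjusted p = 0.00816), Hps4, a factor of melanosome biogenesis (-0.21, unadjusted p = 0.0168), Mlph, which links melanosomes to a motor (-0.64, unadjusted p = 0.0208), Mreg (-0.33) and Atp7a (-0.52). The share of 5 in 32 stands beside 4.88% of all genes. Cd63, the most abundant of the list and common to lysosomes, measured 333 ± 19.0 CPM in NR-treated and 345 ± 17.3 CPM in non-treated mice (SD, n = 5). Leaving out 1 mouse left between 2 and 4 of the 32 lower, with 2 without NR-treated replicate 3 and 3 without NR-treated replicate 1, 4 or 5.

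The regulators of the lineage were divided. Of 21 listed, 18 were tested, and 4 were lower and 2 higher (median -0.04 on the log2 scale), beside 4.88% and 4.83% of all genes tested. Met, the receptor of hepatocyte growth factor (log2 fold change -0.83, edgeR unadjusted p = 0.00228), and Pax3, a transcription factor upstream of Mitf (-0.88, unadjusted p = 0.0100), were lower, as were Hgf and Sox10. Pax3 came to 1.93, 3.94, 1.47, 3.67 and 1.97 CPM in the NR-treated and 3.82, 3.73, 5.58, 6.08 and 4.78 CPM in the non-treated mice. Snai2, a repressor of epithelial genes in neural crest cells (0.62, edgeR unadjusted p = 0.0143), and the adhesion molecule Mcam were higher. Kitl, the ligand of KIT, measured 28.7 ± 5.07 CPM in NR-treated and 21.7 ± 6.51 CPM in non-treated mice (SD, n = 5), which did not pass the threshold. Sox10, the most abundant gene of this list and shared with Schwann cells, had a log2 fold change of -0.21. Without non-treated replicates 3 and 4, 1 regulator was lower and 1 higher.

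Some markers of intermediate, marginal and basal cells were lower at the unadjusted threshold as well. Of 10 further intermediate cell markers, 4 were lower, none higher and all 10 had log2 fold changes below 0 (median -0.20). Over all genes tested, 4.88% were lower and 52.9% had log2 fold changes below 0. The count of 4 was 3 by DESeq2, between 3 and 5 when 1 mouse was left out, and 2 without non-treated replicates 3 and 4. Kcnj10, the potassium channel of intermediate cells, measured 130, 210, 169, 216 and 157 CPM in the NR-treated and 179, 240, 279, 370 and 260 CPM in the non-treated mice (log2 fold change -0.59, SE 0.19, edgeR unadjusted p = 0.00946, adjusted p = 0.434). Gsta4, a glutathione transferase, had a log2 fold change of -0.55 (edgeR unadjusted p = 0.00380). Ptgds, prostaglandin D synthase and the most abundant of these genes, measured 17541 ± 1715 CPM in NR-treated and 18758 ± 2475 CPM in non-treated mice (SD, n = 5), a difference within their spread. Met and Sox10, the other 2 of the 4, are also counted among the regulators.

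Of 12 marginal cell markers, 4 were lower, none higher and all 12 had log2 fold changes below 0, with a median of -0.52. For this and the 2 lists that follow, the shares over all genes tested were 4.88% lower, 4.83% higher and 52.9% below 0. Slc12a2, the cotransporter that loads marginal cells with potassium and the most abundant of them, measured 339, 552, 415, 502 and 407 CPM in the NR-treated and 520, 616, 739, 1078 and 683 CPM in the non-treated mice (log2 fold change -0.72, edgeR unadjusted p = 0.00333). Atp1b2, Lrp2 and Kcne1 were lower too. The summed level of the list was 1161 to 1826 CPM in the NR-treated and 1542 to 3574 CPM in the non-treated mice. The count of 4 depended on single mice, being 2 without NR-treated replicate 1, 3 or 5 or non-treated replicate 3 or 4, 8 without non-treated replicate 1, 7 without non-treated replicate 2, and 1 without non-treated replicates 3 and 4 together. Of 6 basal cell markers, 3 were lower and none higher (median -0.29), among them the tight junction gene Cldn11 (log2 fold change -0.43, edgeR unadjusted p = 0.00394) and the connexin Gjb2, the most abundant. Of the 6, 1 was lower without NR-treated replicate 1, 4 or 5 or non-treated replicate 3 or 4, and at most 4 were when another mouse was left out. Of 10 hair cell markers, Loxhd1, Gfi1 and Cdh23 were lower and none higher (median -0.51), with 0 lower without non-treated replicate 3 or 4, 1 without NR-treated replicate 1 or 5, and 5 without non-treated replicate 1, 2 or 5. Otof, the most abundant of them, measured 74.1 ± 24.6 CPM in NR-treated and 123 ± 70.8 CPM in non-treated mice (SD, n = 5), which did not pass the threshold.

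**Figure D4:**
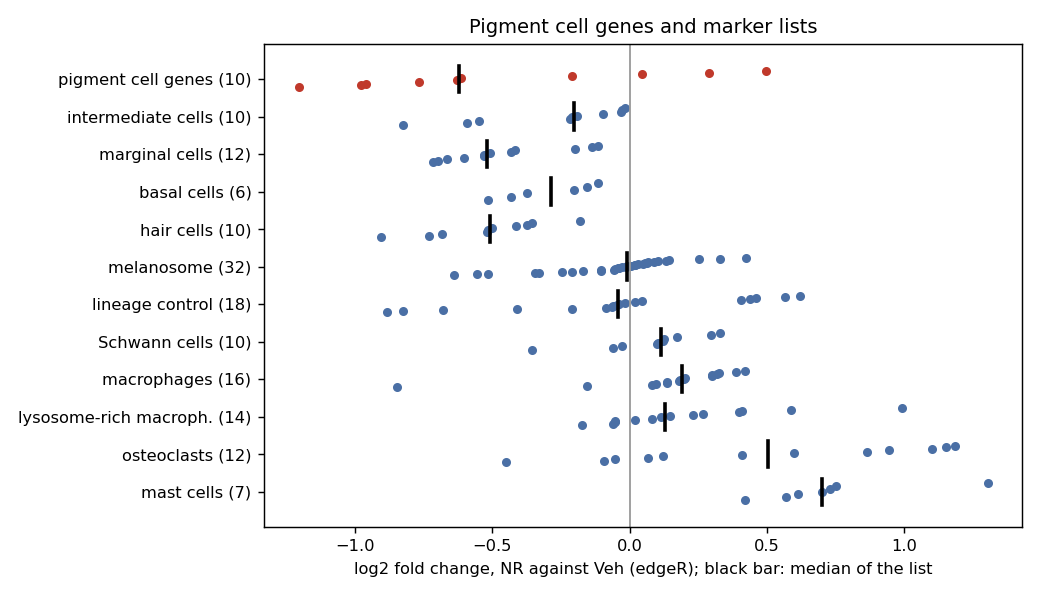
Log2 fold change of each gene tested, NR-treated against non-treated mice (edgeR), for the 10 pigment cell genes (red) and for lists of other genes (blue, number tested in brackets). Each point is 1 gene and the black bar is the median of the list. The medians of the marginal cell (-0.52) and hair cell (-0.51) lists lie nearest to that of the pigment cell genes (-0.62), and those of the osteoclast (0.50) and mast cell (0.70) lists lie on the other side of 0. The 10 pigment cell genes include Gpnmb, which was chosen for its value, and the median of the other 9 is -0.61.

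Markers of macrophages and osteoclasts, the other cells known to make Gpnmb, were for the most part not lower. Of 16 macrophage markers, none was lower or higher at an unadjusted p under 0.05, and the median on the log2 scale was 0.19. By DESeq2 none of the 16 was higher either. Lyz2, the most abundant of them, ranged from 363 to 1490 CPM in NR-treated mice and from 391 to 5740 CPM in non-treated mice, where replicate 2 stood far above the rest, and the summed level of the list was 694 to 2370 and 849 to 6297 CPM. Without NR-treated replicate 2, 4 of the 16 were higher. Of 14 genes of lysosome-rich, lipid-laden macrophages, Lpl alone passed the threshold and was higher (log2 fold change 0.99, edgeR unadjusted p = 0.0139), with a median of 0.13, and Apoe, the most abundant, measured 3176 ± 666 and 2868 ± 312 CPM. Of 12 osteoclast markers tested, 5 were higher, beside 4.83% of all genes tested. Among the 5 were the bone-resorbing protease Ctsk (0.94, edgeR unadjusted p = 0.00815), Dcstamp, Mmp9 and Acp5. The 1 that was lower was Car2 (-0.45, edgeR unadjusted p = 0.00603), a carbonic anhydrase that is not confined to osteoclasts. The median of this list was 0.50, and its summed level was 1224 to 1519 CPM in NR-treated and 1126 to 1847 CPM in non-treated mice. Without NR-treated replicate 1 or 5, 1 of the 12 was higher in place of 5, 2 were without non-treated replicate 5, and 3 were without non-treated replicate 3 or 4. The part of each cell type in the level of Gpnmb was not tested.

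Lists of other cells that could hold pigment or Kit were looked at as well. Of 10 Schwann cell markers, Cdh19 alone was lower (log2 fold change -0.36, edgeR unadjusted p = 0.0211), none was higher, and the list had a median of 0.11. Mbp, the most abundant and a myelin protein, measured 1925 ± 261 CPM in NR-treated and 1797 ± 250.3 CPM in non-treated mice (SD, n = 5). Skin keratinocyte markers, which would mark pigmented skin in the dissected tissue, came to a summed 9.44 to 15.7 CPM in NR-treated and 9.98 to 19.3 CPM in non-treated mice, with none of the 4 tested past the threshold. Krt10 had the highest mean of the list, and Krt1, Flg, Dsg1a and Ivl were too low to be tested. Of the 8 blood progenitor markers none passed the threshold, and Mpo, the most abundant, measured 199 ± 79.8 CPM in NR-treated and 152 ± 43.1 CPM in non-treated mice (SD, n = 5). Of 7 mast cell markers tested, all 7 had log2 fold changes above 0 (median 0.70), and 3 were higher (6 by DESeq2), namely Tpsab1, Cma1 (0.70, edgeR unadjusted p = 0.0103) and Hdc (0.57, unadjusted p = 0.0424). That count was 6 without NR-treated replicate 2, 5 without non-treated replicate 1, and 1 without NR-treated replicate 1, 3 or 5 or non-treated replicate 2, 4 or 5. Over all marker and pathway lists, 23 of 155 genes tested were lower and 11 higher. Among all 18329 genes tested, 4.88% were lower and 4.83% higher at the same threshold.

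Mice of the same group also differed from each other, and some of the pigment cell genes varied together among them. After the mean of each group had been removed, log2 CPM was correlated across the 10 mice for the 45 pairs of genes, with 100000 permutations within groups. After Benjamini-Hochberg adjustment 7 pairs passed 0.05, all positive and all among Tyr, Dct, Slc45a2, Mlana, Kit and Mitf, whereas Tyrp1, Pmel, Oca2 and Gpnmb were in none. Tyr and Dct gave Pearson's r = 0.930 (permutation p = 5.4e-04, adjusted p = 0.0110) and Spearman's rho = 0.976 (p = 2.3e-04), and r was 0.861 without the 2 mice farthest from the median. Tyr and Slc45a2 gave r = 0.925 and rho = 0.891 (permutation adjusted p = 0.0110), and Dct and Slc45a2 gave r = 0.892 and rho = 0.915 (permutation adjusted p = 0.0168). Mlana with Slc45a2 (r = 0.890, rho = 0.903), Slc45a2 with Kit (0.882, 0.867), Tyr with Kit (0.833, 0.758) and Mitf with Slc45a2 (0.677, 0.661) were the others, and their r was 0.764, 0.749, 0.746 and 0.601 without the 2 mice farthest from the median. By rho, 4 of the 45 pairs passed after adjustment.

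These relations leaned on a few mice. Without NR-treated replicate 1, the lowest of all mice in all 6 genes of these pairs, none of the 45 pairs passed after adjustment, and without NR-treated replicate 2, 2 did. Without NR-treated replicate 3 or 5, 4 passed, and 3 passed without non-treated replicate 1. The r of Tyr with Dct itself stayed between 0.901 and 0.988 whichever mouse was left out. Gpnmb was not among the 7 pairs, and its largest r was 0.646 with Dct (rho = 0.685, permutation p = 0.0640, adjusted p = 0.160), which lay between 0.416 and 0.870 when 1 mouse was left out. With Mlana its r was 0.317 and with Tyrp1 0.207. Tyrp1 gave r = 0.113 with Dct and -0.11 with Tyr.

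**Figure D5:**
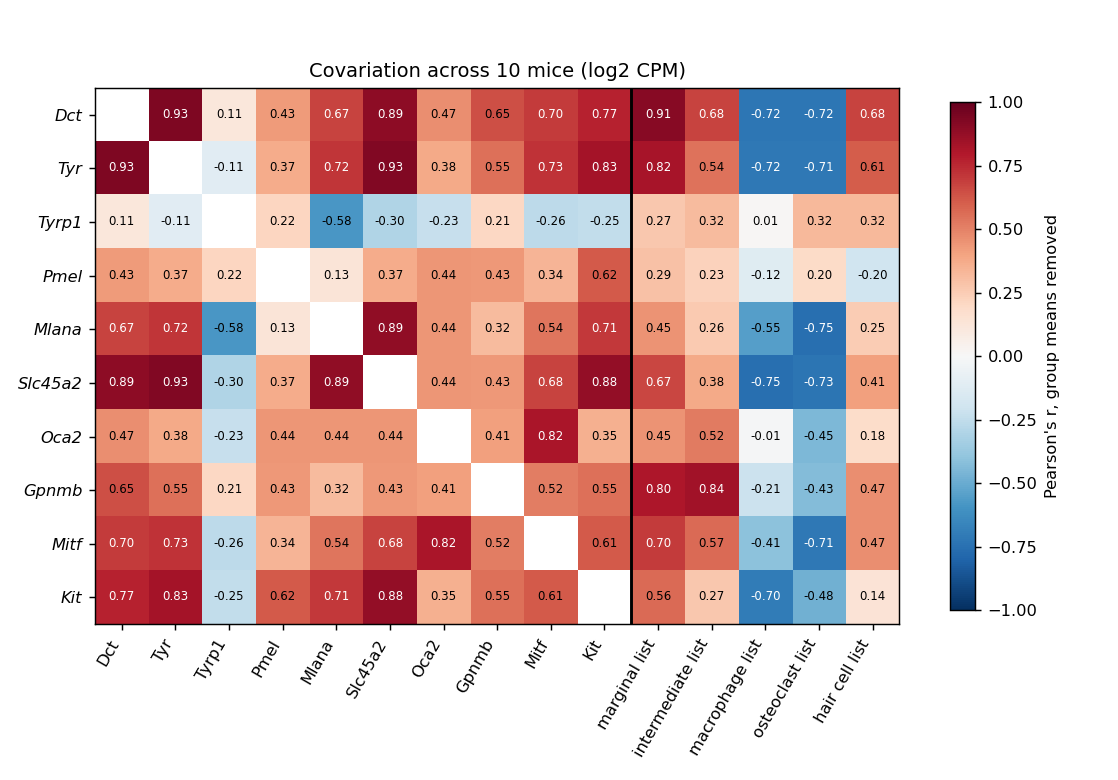
Pearson's r across 10 mice, with group means removed, between pigment cell genes (rows, and columns left of the black line) and between each of them and the mean log2 CPM of 5 marker lists (columns right of it). Tyr, Dct, Slc45a2 and Kit form a block of r from 0.77 to 0.93, and Gpnmb has its largest r with the intermediate (0.84) and marginal (0.80) cell lists.

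Each gene was also correlated with the mean log2 CPM of 5 marker lists, giving 50 relations, of which 2 passed after adjustment. Dct and the marginal cell list gave r = 0.909 and rho = 0.939 (permutation adjusted p = 0.0030), and 0.954 without the 2 mice farthest from the median. Tyr and the marginal cell list gave r = 0.821 and rho = 0.939 (permutation adjusted p = 0.0135), and 0.877 without these mice. With the intermediate cell list, r was lower, at 0.677 for Dct and 0.545 for Tyr (permutation adjusted p = 0.143 and 0.218). Without the 2 mice farthest from the median, these were 0.915 and 0.818. Non-treated replicate 4 was the highest and NR-treated replicate 1 the lowest in Dct and in the marginal list (7.04 and 5.56 log2 CPM). No relation of the 50 passed without non-treated replicate 2 or 4, 1 passed without NR-treated replicate 4 or non-treated replicate 1, and 4 passed without NR-treated replicate 1. Gpnmb had an r of 0.836 with the intermediate cell list (rho = 0.818, permutation adjusted p = 0.0978) and of 0.805 with the marginal cell list (permutation adjusted p = 0.108), and of -0.21 with the macrophage list and -0.43 with the osteoclast list. Dct had an r of -0.72 with the macrophage list and of -0.72 with the osteoclast list (permutation adjusted p = 0.143 for both). All these levels come from the same libraries.

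Since some marginal cell markers were lower too, the level of each gene was also taken relative to the mean of that list in the same mouse. This was chosen after the values had been seen. Relative to the marginal cell list, Dct had a log2 level of 2.00 ± 0.25 in the NR-treated and 2.54 ± 0.13 in the non-treated mice (SD, n = 5), a difference of -0.54 with all 5 NR-treated mice below all non-treated mice (two-sided exact permutation p = 0.00794, the smallest that 252 labelings allow, and 0.0357 adjusted over 9 ratios). For Tyr the difference was -0.82, again with 5 of 5 below (two-sided exact permutation p = 0.00794, adjusted 0.0357). For Slc45a2 it was -0.61 with 3 of 5 below (exact permutation p = 0.0238, adjusted 0.0714). Mitf (-0.20), Mlana (-0.23) and Kit (0.19) did not pass the threshold by this measure, with exact permutation p-values of 0.357 or more. Pmel (0.46), Oca2 (0.78) and Tyrp1 (1.39) were not lower by this measure and did not pass after adjustment (exact permutation, adjusted p = 0.202, 0.107 and 0.202). For Gpnmb, given with no test, the difference was -0.36, and 3 of 5 NR-treated mice were below all non-treated mice.

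Levels relative to Dct in the same mouse were also taken, again after the values had been seen, and as Dct itself was lower in the NR-treated mice, a gene with a smaller difference is higher relative to it. Tyr relative to Dct was at -0.28 on the log2 scale in NR-treated against non-treated mice (two-sided exact permutation p = 0.0238, adjusted over 8 ratios 0.0476). The larger difference of Tyr than of Dct had already been seen, so this p-value is no separate result about Tyr. The ratio to Dct differed by -0.07 for Slc45a2, 0.31 for Mlana and 0.34 for Mitf, and these did not pass the threshold (exact permutation p = 0.611, 0.230 and 0.190). Kit (0.74), Pmel (1.00) and Oca2 (1.32) were higher relative to Dct (exact permutation p = 0.0238, 0.00794 and 0.00794, adjusted 0.0476, 0.0317 and 0.0317). For these ratios the lower Dct is part of the value, and its difference, already seen, set their direction. Their p-values are therefore no separate result about Kit, Pmel or Oca2. Tyrp1, with few reads, had the largest ratio difference of the 8 (1.93) and did not pass the threshold (exact permutation p = 0.0556, adjusted 0.0889). Gpnmb relative to Dct was 0.18 higher, with no test.

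The genes whose levels followed Dct most closely across the 10 mice, with group means removed, were not pigment genes. Among 18329 genes the 5 with the highest Pearson's r were Cpeb3 (0.975), Esrrb (0.973), Scml4 (0.971), Gm40513 (0.966) and Ank3 (0.955), where Esrrb is a nuclear receptor of marginal cells and one of the 12 markers above. Of the pigment cell genes, Tyr ranked 27th with 0.930, Slc45a2 99th with 0.892, Kit 732nd, Mitf 1350th, Mlana 1591st, Gpnmb 1833rd, Oca2 3599th, Pmel 3990th and Tyrp1 7519th. The 5 genes most like Gpnmb were Zfp869 (0.969), D130007C19Rik (0.956), Tcf4 (0.937), Acy3 (0.931) and Hykk (0.923). Dct ranked 988th among the genes most like Gpnmb. With 10 mice and 18329 genes, values of this size are a description only.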

How the data were processed

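Cochlear RNA of 10 mice was sequenced by Novogene from NEBNext Ultra libraries. As deposited by the authors, each gene has a raw count of reads, in 1 table a mouse, and per the submitters' processing notes they come from CASAVA, fastp, STAR (version 2.6.1d, mm10) and featureCounts (version 1.5.0, without strand by default). The annotation release is not given in the sources used here. Libraries of 17060379 to 24419230 counts were scaled by TMM and tested with edgeR (version 4.0.16 in R 4.3.3, quasi-likelihood test, filterByExpr, 18329 genes, Benjamini-Hochberg adjustment over all of them), comparing NR-treated with non-treated mice and using no covariate. The test was checked on simulated counts. The unadjusted threshold was 0.05. Log2 CPM used a prior count of 2. TPM used the gene lengths of the tables, over all their genes. The limit given for a count of 0 covers counting error only. Standard errors and p-values take the spread between mice into account, and ± values are SDs between mice.

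The genes and lists were chosen with earlier results of these data known. Named are the 10 genes, the most abundant gene and up to 3 genes with the smallest unadjusted p under 0.05 of each list, the 5 genes most like Dct and Gpnmb, and Nnt; other list genes and the sex genes were named after their values were seen. Correlations were tested with 100000 permutations within groups (python 3.11.15) and ratios with exact permutation tests over 252 labelings. Promoters are from RefSeq (GRCm38.p6) and exons from GENCODE M21. No 2 libraries matched within sampling noise over 45 pairs. The labels give no batch. Alternatives were DESeq2 (version 1.42.0), its size factors, other filters (CPM of at least 1 in 5 samples, or 1 read), robust dispersion, a replicate block and leaving out mice. The authors used DESeq2 (version 1.26.0).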

Additional observations from a re-analysis of the deposited data

Results flagged for a closer look

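The level of Gpnmb in non-treated replicate 4, 253.5 CPM, stood apart from the other 4 non-treated mice, of which the nearest was at 193.0 CPM. The gap was 0.723 of the range of the group, above Dixon's critical value of 0.71. This was the only such case in 20 groups (10 genes in each treatment), and chance gives about 1 in 20. It fell on the gene selected for its lower level in NR-treated than in non-treated mice. A high non-treated value is not independent of that selection. Replicate 4 was also the non-treated mouse with the highest Dct, Tyr, Mitf and Slc45a2, and without it the log2 fold change of Gpnmb was -0.65 in place of -0.77.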

How the results depend on the processing

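All 6 genes that were lower at an unadjusted p under 0.05 stayed so, and none of the 9 became higher, under DESeq2, its size factors, both filters, robust dispersion, the replicate block and each left-out mouse. Of 151 alternative log2 fold changes of the 9 tested genes, 149 kept their direction and side of the threshold. The others were Pmel without NR-treated replicate 4 (-0.0053) and without non-treated replicate 3 (-0.034), the low end of its range to 0.12, where the cause was not tested. With DESeq2, 105 of all genes and 4 of the 9 passed an adjusted p of 0.05 and 17 list genes were higher in place of 11. With no filter, 1414 of all genes were higher in place of 886 and 18 list genes were. With a minimum of 1 CPM, 16520 genes were tested and Tyrp1 and Oca2 dropped out. Without centring, 21 of 45 correlations among the genes and 15 of 50 with lists passed, since group differences then enter. When 1 mouse was left out, all genes lower ranged from 484 (without NR-treated replicate 3) to 1059, all genes higher from 669 to 1414 (without NR-treated replicate 2), genes past an adjusted p from 0 to 1, list genes lower from 13 to 30 and higher from 5 to 29, correlations among the genes from 0 to 8 and with lists from 0 to 4. All genes lower were 521 without NR-treated replicate 1 and 558 without non-treated replicate 3. Without non-treated replicates 3 and 4 together, a choice made after seeing the data, 6 list genes were lower and 4 higher.

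Replicate numbers did not pair the mice (r of deviations from 0.170 to -0.22). The replicate block left 6 of the 9 lower, with a smallest adjusted p of 0.286, and 776 of all genes lower and 879 higher. Tyrp1 and Oca2 had at most 28 reads a library, which limits what could be seen of them.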

Other observations

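Nnt, which the methods describe as wild type in these mice, came to 0.0437 to 0.626 CPM in the NR-treated and 0.283 to 1.03 CPM in the non-treated mice.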
